A study of Sus scrofa with 6 samples.

Results

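Transforming growth factor beta (TGF-beta) signalling was examined in renal cortex through its ligands (TGFB1, TGFB2, TGFB3), receptors (TGFBR1, TGFBR2, TGFBR3) and SMAD proteins (SMAD2, SMAD3, SMAD4, SMAD7). Members were the probes whose gene name in the scanner files is one of these 10 symbols. They were 9 genes of the 5237 named on the porcine Agilent array, measured by 19 of its 43603 probes. No probe carried the name TGFBR2, and 2 further probes that only their descriptions assign to TGFBR2 and SMAD3 are given apart. The family was chosen on the measured difference of TGFB2 between ischemia and control kidneys, which stood among those of smallest unadjusted p. Every difference between these groups below is therefore a description.

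The tested kidneys (ischemia, n = 3) came from Large White pigs aged 3 months. Their vessels were clamped for 60 min at 37 °C, after which they were flushed cold with an organ preservation fluid (University of Wisconsin solution) and stored for 24 h at 4 °C. Control kidneys (n = 3) came from other Large White pigs of the same age and were frozen as soon as they had been taken out. Each kidney gave 1 piece of cortex RNA and 1 single-colour array. Warm ischemia, flush and cold storage cannot be told apart in this design, no kidney was reperfused, and the labels name no other treatment, genotype or sex.

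TGF-beta is secreted bound to its own propeptide and has to be released before it can act. The free ligand binds the kinase receptor TGFBR2, which activates TGFBR1. TGFBR1 then phosphorylates SMAD2 and SMAD3, which enter the nucleus with SMAD4, while SMAD7 is induced by the pathway and blocks TGFBR1. In the kidney the pathway is known above all for driving fibrosis. These roles come mainly from work on human and mouse cells.

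Between 52.6% and 61.4% of the spots on an array were well above background by the scanner software's flag, and no spot was saturated. Each of the 3 slides carried 1 ischemia and 1 control array, at positions 3 and 4 of every slide, and the effects of position and group cannot be told apart. Values are log2 processed signals from which the array's 75th percentile was subtracted, so a value of 0 lies at that percentile, and differences are ischemia minus control on this log2 scale. The cortex markers of the proximal tubule were bright on all arrays. The summed linear level of 7 of 10 listed markers that had a probe was lower in ischemia kidneys (271 to 321) than in control kidneys (392 to 585), with 7 of 7 lower. The summed level of 5 of 8 fibroblast markers was 115 to 139 in ischemia kidneys and 93.9 to 111 in control kidneys, with 3 higher and 2, COL1A2 and LUM, lower in ischemia kidneys. ACTA2, the brightest, has the largest share of that sum. That of 4 of 7 macrophage markers was 11.6 to 16.9 in ischemia kidneys and 8.92 to 9.44 in control kidneys, with 3 higher and 1 lower. That of 5 of 6 T cell and leukocyte markers was 1.44 to 2.30 in ischemia kidneys and 3.57 to 3.71 in control kidneys. The lower sum came from CD247, at -1.33, while 3 of the 5 were higher in ischemia kidneys and the median difference was 0.13. These 4 sums did not overlap between the groups, as the values of TGFB2 did not, and their part in the differences below was not tested. In bulk tissue, fewer cells of a type and less RNA per cell cannot be told apart.

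Of the 19 member probes, 15 were well above background on all 6 arrays, and 17 entered the fit across the array, which required this on at least 3 arrays. With limma and Benjamini-Hochberg adjustment over 25013 probes, 0 of the 17 passed at an adjusted p under 0.05, as did 0.004% of all probes tested. At an unadjusted p under 0.05 there was 1 member probe, that of TGFB2, where 6.3% of all probes lay under that limit. The groups did not overlap in 3 member probes with ischemia higher and in 0 with ischemia lower, where 5.89% and 5.02% of all probes behaved so. Because the contrast helped to choose the family, nothing is read from these counts. The median difference was 0.11 over the 17 member probes and -0.04 over all probes. In size, 14 of the 17 differences were under 0.5, as were 83.4% over all probes. With the main scaling 12 of 17 member probes were higher in ischemia kidneys, and 44.2% of all probes were. Of the 17 member probes 5 are of SMAD4, so they do not count as separate genes. With each array centred on its median 16 of 17 member probes were higher, and the median of all probes moved up to 0.11 as well.

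**Figure D1:**
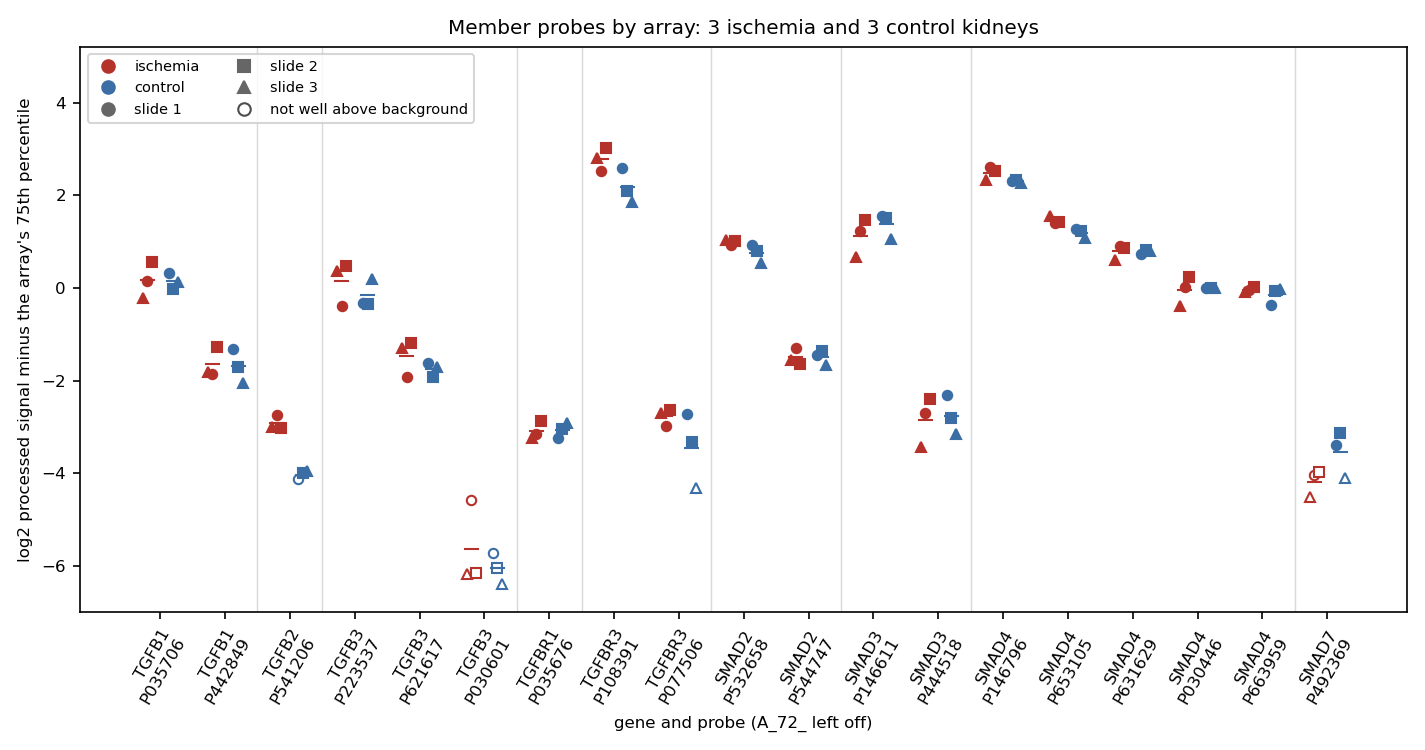
Log2 signal relative to the array's 75th percentile (vertical axis) for each of the 19 member probes (horizontal axis) in ischemia kidneys (red, left) and control kidneys (blue, right). Each point is 1 array, its shape gives the slide, an open point is not well above background, and lines are group means. TGFB2 is low on all arrays and separates the groups, and the TGFB1 groups overlap.

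TGFB2 had the largest difference of the 3 ligands in the main setting, though not with normexp correction, where it was 0.25 and that of a TGFB3 probe 0.30. It is known as the TGF-beta that binds TGFBR2 poorly on its own and depends on the co-receptor TGFBR3. It was measured by a single probe, whose sequence is shown because every TGFB2 value rests on it. Capitals here and below mark AATAAA, the letters of the usual polyadenylation signal.
TGFB2 A_72_P541206: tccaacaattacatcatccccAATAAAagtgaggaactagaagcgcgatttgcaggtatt
The hexamer AATAAA occurs on this strand in 9.60% of all probes of the array, all 60 bases long, and on either strand in 13.4%. A match is a matter of letters and does not locate the probe in the transcript. The TGFB2 probe shares at most 14 bases in a row with any other probe of the array, on either strand. Over the 19 member probes this longest shared run was 13 to 15 bases.

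The TGFB2 probe read -2.99, -2.75 and -3.02 in ischemia kidneys 1 to 3, against -4.13, -4.00 and -3.96 in control kidneys 1 to 3. All 3 ischemia values lay above all 3 control values. The means were -2.92 ± 0.15 in ischemia kidneys and -4.03 ± 0.09 in control kidneys (SD, n = 3 each). The difference was 1.11 with a standard error of 0.19 in limma, a signal 2.15-fold higher in ischemia kidneys. Within slides 1, 2 and 3 it was 1.39, 0.97 and 0.96. Ranked by unadjusted p the probe stood at place 34 of the 25013 tested. That rank brought TGFB2 to notice, so no p-value is given for it.

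The TGFB2 signal was faint. In the scanner's linear units it was 52.4, 36.7 and 36.0 in ischemia kidneys, and 14.6, 16.7 and 17.2 in control kidneys. The lowest signal that any probe called well above background had on these arrays was 14.6, 16.3 and 16.0 in ischemia kidneys and 16.5, 15.0 and 12.2 in control kidneys. Control kidneys therefore lay at the edge of detection, with the flag set on 2 of 3 arrays, and ischemia kidneys lay clear of it on 3 of 3. Without subtraction of the background, the mean brightness of the spot was 104, 89.4 and 87.0 in ischemia kidneys and 63.0, 62.9 and 57.6 in control kidneys, over a local background of 27.5 to 36 units. The size of the difference depended on the processing. It was 0.25 with normexp background correction, which adds an offset of 50 to every signal. In the authors' deposited table it was 0.62, where the median of all probes tested was 0.14. The cause of the smaller TGFB2 value there was not tested.

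**Figure D2:**
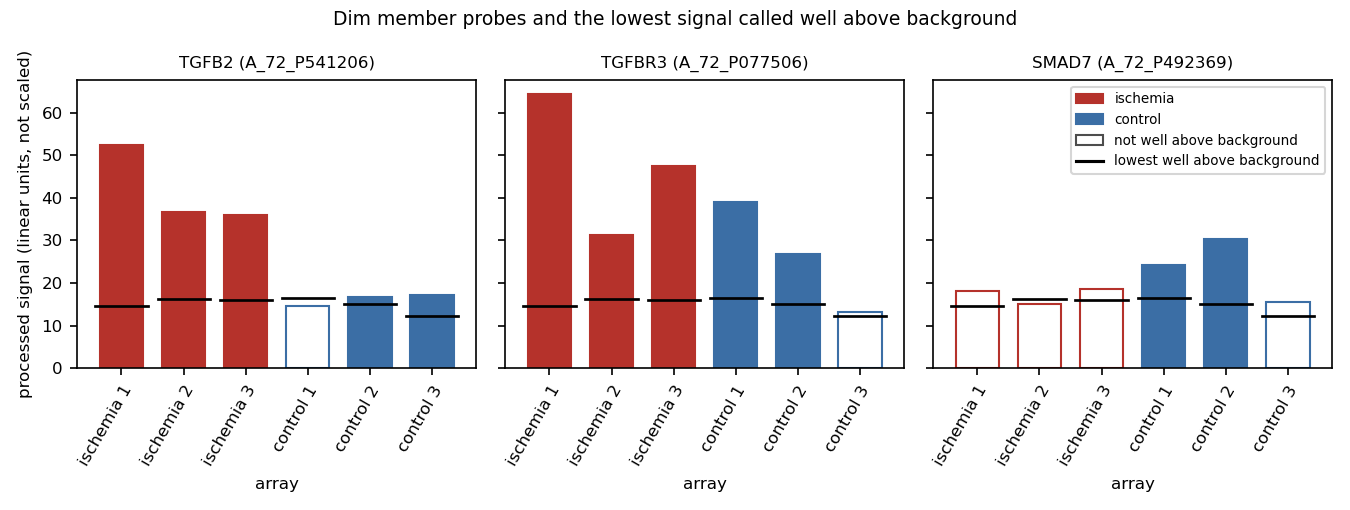
Processed signal in linear, unscaled units (vertical axis) of the TGFB2 probe, the dimmer TGFBR3 probe and the SMAD7 probe on each array (horizontal axis), ischemia in red and control in blue. White bars are not well above background and black lines give the lowest signal called well above background on that array. TGFB2 bars stand above the line in 3 of 3 ischemia kidneys and at or near it in control kidneys, whereas SMAD7 bars are near the line in ischemia kidneys.

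TGFB1, the most widely studied TGF-beta ligand and the one most often tied to scarring, had group means close to each other. Its brighter probe, A_72_P035706, read -0.22, 0.15 and 0.55 in ischemia kidneys and 0.32, -0.02 and 0.14 in control kidneys. The groups overlapped, with a difference of 0.02 ± 0.25 (SE) and a 95% interval of -0.57 to 0.60. The other TGFB1 probe, A_72_P442849, read -1.81, -1.85 and -1.27 in ischemia kidneys and -1.32, -1.72 and -2.04 in control kidneys, a difference of 0.05 ± 0.27. The interval of neither probe excludes a change of about 0.5 either way. Within slides 1, 2 and 3 the brighter probe differed by -0.16, 0.57 and -0.36, and the other by -0.53, 0.45 and 0.23. Over the 6 arrays the values of both probes had a correlation of 0.69.

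TGFB3, the third ligand, had 3 probes. Of these, 2 were well above background on all 6 arrays and 1 was not on any, and their sequences are shown for that reason.
TGFB3 A_72_P223537: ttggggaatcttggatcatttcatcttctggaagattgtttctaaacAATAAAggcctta
TGFB3 A_72_P621617: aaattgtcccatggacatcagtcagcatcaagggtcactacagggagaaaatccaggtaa
TGFB3 A_72_P030601: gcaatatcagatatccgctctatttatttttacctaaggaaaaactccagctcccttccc
The third of these holds the hexamer on the opposite strand, and it was not well above background on any of the 6 arrays, so it gives no fold. The first read 0.37, -0.38 and 0.47 in ischemia kidneys and -0.33, -0.35 and 0.20 in control kidneys, a difference of 0.31 ± 0.30 (SE). The second read -1.29, -1.92 and -1.18 in ischemia kidneys and -1.62, -1.93 and -1.71 in control kidneys, a difference of 0.28 ± 0.25. Both sets of values overlapped between the groups. In both probes ischemia kidney 2 was the lowest of its group and lay beside the control values. On its slide the differences were -0.05 and -0.30, and they were 0.82 and 0.74 on slide 2 and 0.16 and 0.41 on slide 3. The values of both probes had a correlation of 0.86 over the 6 arrays.

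TGFBR3, betaglycan, is a co-receptor without kinase activity that presents ligand, TGFB2 above all, to the signalling receptors. Its 2 probes, of different sequence, had the largest differences among the tested members after TGFB2 in the main setting.
TGFBR3 A_72_P108391: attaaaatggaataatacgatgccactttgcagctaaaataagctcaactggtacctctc
TGFBR3 A_72_P077506: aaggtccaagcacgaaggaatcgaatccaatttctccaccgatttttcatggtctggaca
The bright probe, the first, read 2.80, 2.53 and 3.02 in ischemia kidneys and 2.60, 2.10 and 1.86 in control kidneys. The groups overlapped in that ischemia kidney 2 lay just under control kidney 1. The difference was 0.60 ± 0.26 (SE), with a 95% interval of -0.01 to 1.21. The dimmer probe read -2.70, -2.97 and -2.63 in ischemia kidneys and -2.71, -3.32 and -4.32 in control kidneys, a difference of 0.69 ± 0.40. Control kidney 3 was the lowest and not well above background. Within slide 1 the probes differed by -0.06 and -0.26, within slide 2 by 0.92 and 0.69, and within slide 3 by 0.94 and 1.63. So TGFBR3 was higher in the ischemia kidney on slides 2 and 3 and not on slide 1. In the authors' deposited table the differences were 0.78 and 0.32, against 0.62 for TGFB2 there. With normexp correction they were 0.59 and 0.04, so the bright probe then exceeded the 0.25 of TGFB2. Without control kidney 3 the bright probe differed by 0.44 and the dimmer by 0.25, and without control kidney 1 they differed by 0.81 and 1.06.

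The kinase receptors had overlapping groups. TGFBR1, the receptor that phosphorylates SMAD2 and SMAD3, read -3.25, -3.16 and -2.88 in ischemia kidneys and -3.23, -3.05 and -2.91 in control kidneys on its single probe. Its difference was -0.04 ± 0.20 (SE) and the values overlapped throughout. The probe assigned to TGFBR2 by its description, A_72_P100831, read -0.61, -0.55 and -0.08 in ischemia kidneys and 0.10, -0.08 and -0.13 in control kidneys. Its difference was -0.38 ± 0.22, with a 95% interval of -0.89 to 0.14. Within slides 1, 2 and 3 it differed by -0.65, 0.00 and -0.48. Ischemia kidney 3 read like the control kidneys, and the other ischemia kidneys read lower.

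SMAD2 and SMAD3 are the receptor-regulated SMADs, the direct substrates of TGFBR1. The brighter SMAD2 probe, A_72_P532658, read 1.03, 0.92 and 1.00 in ischemia kidneys and 0.93, 0.81 and 0.54 in control kidneys, a difference of 0.22 ± 0.19 (SE). The other SMAD2 probe, A_72_P544747, differed by -0.01 ± 0.20, and the values of both had a correlation of 0.23 over the 6 arrays. The direction of the second probe depended on the scaling. With each array centred on its median the probes differed by 0.37 and 0.14, and with quantile normalization by 0.21 and 0.08. In the authors' deposited table the row that names the second probe differed by 0.30. Such rows can average several probes of an accession and the first probe has no row of its own, so this value may not be that of the second probe alone.

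The brighter SMAD3 probe, A_72_P146611, read 0.67, 1.24 and 1.47 in ischemia kidneys and 1.56, 1.52 and 1.06 in control kidneys. Its difference was -0.25 ± 0.27 (SE), and within slides 1, 2 and 3 it was -0.32, -0.04 and -0.39. The dimmer one, A_72_P444518, read -3.44, -2.70 and -2.40 in ischemia kidneys and -2.32, -2.80 and -3.16 in control kidneys, a difference of -0.09 ± 0.34. The values of both SMAD3 probes had a correlation of 0.91. In both probes ischemia kidney 1 and control kidney 3, the pair on slide 3, were the lowest of their groups. The probe assigned to SMAD3 by its description, A_72_P224147, differed by -0.07 ± 0.29.

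SMAD4, the common partner of the receptor-regulated SMADs, had 5 probes, with differences of -0.04 to 0.26. The groups did not overlap in 2 of them. A_72_P653105 read 1.54, 1.40 and 1.42 in ischemia kidneys and 1.28, 1.22 and 1.08 in control kidneys, a difference of 0.26 ± 0.18 (SE). A_72_P146796, the brightest, read 2.33, 2.61 and 2.52 in ischemia kidneys and 2.32, 2.32 and 2.27 in control kidneys, a difference of 0.19 ± 0.18. In A_72_P146796 the groups were separated by a gap smaller than the spread among the ischemia kidneys. The other 3 SMAD4 probes differed by 0.02, -0.04 and 0.11, and their groups overlapped. Pairs of SMAD4 probes had correlations of -0.35 to 0.83 over the 6 arrays, so probes of 1 gene did not rank the kidneys alike. A_72_P030446 had an SD of 0.32 over the ischemia kidneys and 0.0063 over the control kidneys.

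SMAD7, the inhibitory SMAD that shuts off TGFBR1, was detected less often in ischemia kidneys on its only probe, shown because the values rest on it alone.
SMAD7 A_72_P492369: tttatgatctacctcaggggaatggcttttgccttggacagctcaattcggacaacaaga
It was well above background on 0 of 3 ischemia arrays and on 2 of 3 control arrays, and so it did not enter the fit. The linear signal was 18.2, 15.0 and 18.5 in ischemia kidneys, and 24.3, 30.4 and 15.5 in control kidneys. On the log2 scale it read -4.52, -4.03 and -3.98 in ischemia kidneys and -3.39, -3.14 and -4.10 in control kidneys. The groups overlapped because control kidney 3 read as low as the ischemia kidneys. Between the group means in the main setting, the bound for SMAD7 was 1.51-fold lower in ischemia kidneys. This bound sets the control mean against the mean, per ischemia array, of the higher of the probe's own value and the lowest value called well above background, and it leaves out the spread between kidneys. Measured means were -4.18 ± 0.30 in ischemia kidneys and -3.54 ± 0.50 in control kidneys (SD, n = 3 each). The control mean includes control kidney 3, which was not well above background. In the authors' deposited table SMAD7 differed by -0.16, which is smaller than the bound, so the bound holds for the main setting only.

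**Figure D3:**
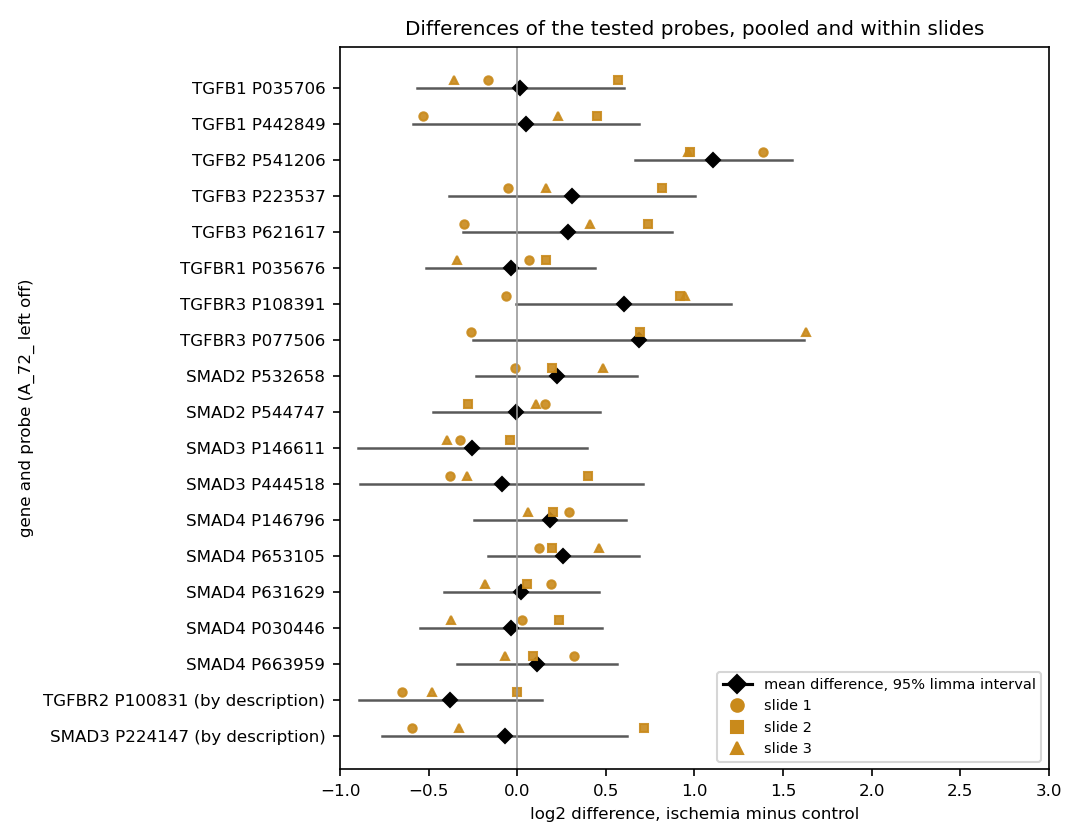
Log2 difference, ischemia minus control (horizontal axis), of the 17 tested member probes and the 2 probes named by their description (vertical axis). Diamonds are differences of group means with the 95% limma interval, and orange symbols are the differences within each of the 3 slides. TGFB2 lies near 1.11 with its slides at 0.96 to 1.39, while the TGFBR3 slides spread from -0.26 to 1.63.

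In the Sscrofa11.1 annotation of RefSeq, used here for gene order, SMAD3 and SMAD6 are neighbours with 0 protein-coding genes between them. SMAD2 and SMAD7 lie on the same chromosome with 2 between them. The inhibitory SMAD6, whose probe was well above background on all arrays, differed by -0.12 ± 0.37 (SE). It read -2.03, -2.73 and -2.59 in ischemia kidneys and -1.87, -2.03 and -3.08 in control kidneys.

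Other genes of the pathway were taken from lists and represented by their brightest probe. With limma, 0 genes of these lists passed at an adjusted p under 0.05 in either direction, as did 0% of the 4087 genes tested by symbol. The lists held 3 genes with an unadjusted p under 0.05, namely BMP2, COL1A2 and CDKN1A, and 6.68% of all genes had one. Their adjusted p in limma was 0.69 for BMP2, 0.39 for COL1A2 and 0.50 for CDKN1A. Groups did not overlap in 7.66% of all genes with ischemia higher and in 4.18% with ischemia lower, and the median difference of all genes was 0.02.

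Genes that hold TGF-beta latent or release it were represented by 6 tested genes of 15 listed, with a median difference of 0.04. Groups were apart in 1 of them, ITGAV, with ischemia lower. ITGAV, the integrin alpha V chain that takes part in releasing latent TGF-beta, read 3.31, 3.27 and 3.55 in ischemia kidneys and 3.75, 3.71 and 3.68 in control kidneys, a difference of -0.34 ± 0.18 (SE). Its 5 tested probes all lay between -0.37 and -0.15. THBS1, thrombospondin 1, another activator, differed by 0.21 ± 0.27. Decorin, DCN, a matrix proteoglycan that binds TGF-beta, differed by 0.31 ± 0.22, and EMILIN1 by 0.09 ± 0.21.

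The other receptors had 6 tested genes of 12 listed, with a median of -0.03 and no group apart. ENG, endoglin, the endothelial co-receptor related to TGFBR3, differed by 0.14 ± 0.25 (SE). ACVR1, a type I receptor for BMP ligands, differed by 0.00 ± 0.21, ACVR1B, an activin receptor, by 0.11 ± 0.23 and BMPR1B, a BMP receptor, by -0.16 ± 0.22.

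SMAD regulators and other SMADs had 8 tested genes of 22 listed, with a median of 0.03. Groups were apart in 1 of them, PMEPA1, with ischemia lower. PMEPA1, a TGF-beta induced membrane protein that restrains SMAD2 and SMAD3, read 1.94, 1.70 and 2.35 in ischemia kidneys and 2.48, 2.86 and 2.36 in control kidneys. Its difference was -0.57 ± 0.25 (SE), and its 2 tested probes lay at -0.57 and -0.62. Within slides 1, 2 and 3 it was -0.78, -0.51 and -0.41. FKBP1A, a binding partner of TGFBR1, differed by 0.04 ± 0.25, the SMAD phosphatase PPM1A by 0.09 ± 0.21 and the coactivator EP300 by 0.16 ± 0.23.

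Other ligands and antagonists of the family had 10 tested genes of 27 listed, with a median of -0.11, and groups were apart in 1 with ischemia higher. BMP2, a bone morphogenetic protein that signals through SMAD1 and SMAD5, read -3.10, -2.34 and -2.21 in ischemia kidneys and -3.46, -3.35 and -3.30 in control kidneys. Its difference was 0.82 ± 0.27 (SE), and within slides 1, 2 and 3 it was 1.12, 1.14 and 0.21. GDF15, a stress-induced member of the family, differed by 0.53 ± 0.27, and GDF11 by -0.41 ± 0.27. INHBA, the activin A chain, differed by -0.13 ± 0.28, and AMH by -0.11 ± 0.24.

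Commonly used TGF-beta target genes had 17 tested genes of 30 listed symbols, with a median of 0.23. In ischemia kidneys 12 were higher and 5 lower. The list includes ID2, which TGF-beta lowers in epithelial cells, so this count does not measure pathway activity. Groups were apart in 2 with ischemia higher and 3 with ischemia lower. COL1A2, a type I collagen chain, read -3.90, -3.24 and -3.35 in ischemia kidneys and -2.35, -1.78 and -1.43 in control kidneys, a difference of -1.64 ± 0.30 (SE). CDKN1A, the p21 cell cycle inhibitor, read 2.17, 2.69 and 2.85 in ischemia kidneys and 1.62, 1.14 and 1.53 in control kidneys, a difference of 1.14 ± 0.25. ID2, which BMP signalling raises and TGF-beta lowers in epithelial cells, read 4.41, 4.28 and 4.44 in ischemia kidneys and 4.97, 5.02 and 4.54 in control kidneys, a difference of -0.47 ± 0.21. The bright genes ACTA2, smooth muscle actin, and SPARC, a matrix protein, differed by 0.28 ± 0.22 and 0.11 ± 0.30. The other genes with groups apart, named after their values were seen, were POSTN and KLF10. POSTN, a matrix protein, differed by 1.39 ± 0.67 and KLF10, an early TGF-beta response gene, by -0.74 ± 0.38. In both, the gap between the groups was small beside the spread within them. The nearest POSTN values were -0.96 in ischemia kidney 3 and -1.01 in control kidney 1. Those of KLF10 were 1.79 in ischemia kidney 3 and 1.81 in control kidney 1. Within slides 1, 2 and 3 POSTN differed by 0.29, 2.44 and 1.45, and KLF10 by -0.21, -0.63 and -1.37. CCN2, connective tissue growth factor and a standard readout of the pathway, also named after its values were seen, had overlapping groups. It read 0.54, 1.32 and 0.90 in ischemia kidneys and 0.41, 1.05 and 0.60 in control kidneys.

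**Figure D4:**
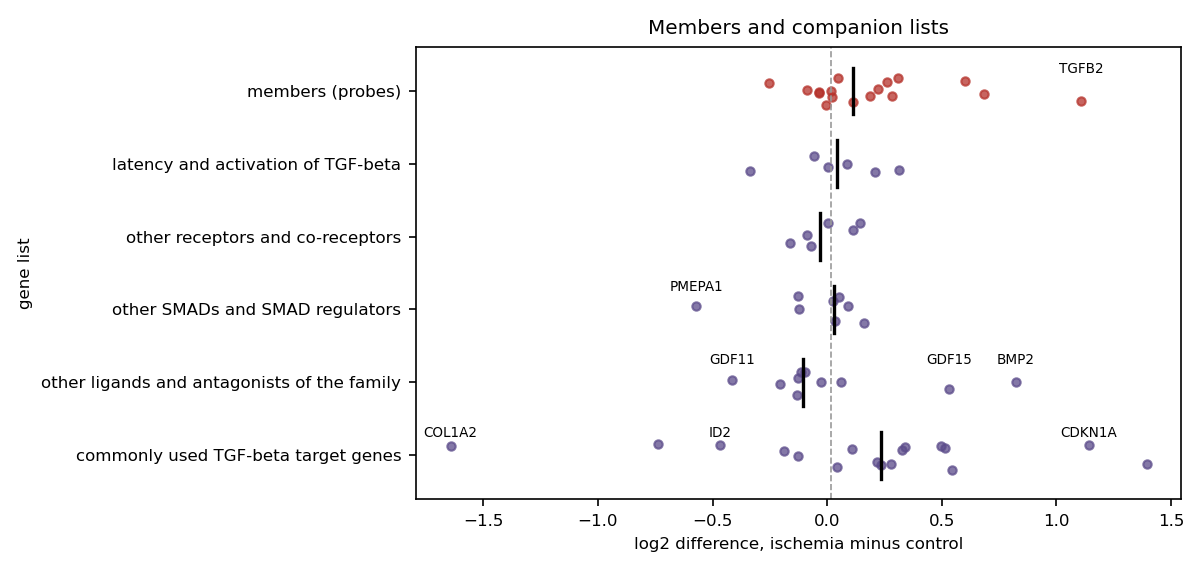
Log2 difference, ischemia minus control (horizontal axis), of the 17 tested member probes (red) and of the tested genes in 5 lists of related genes (purple). Black bars are medians, the dashed line is the median of all genes, vertical position within a row carries no value, and TGFB2 and the list genes of smallest p beyond 0.4 in size are named. The target genes reach from -1.64 for COL1A2 to beyond the 1.14 of CDKN1A, and the other lists lie closer to the dashed line.

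The genes whose values over the 6 arrays followed those of a member most closely were sought among 4078 genes, as a description. For TGFB2 the correlation was highest with TPRKB (0.99), PINX1 (0.99), SLC2A2 (0.98), DUSP11 (0.98) and NFIB (0.98), all of them higher in ischemia kidneys by 0.48 to 1.08. For TGFB1 it was highest with WDFY3 (0.99), FGFR1 (0.98), SLA-DQB1 (0.98), SLA-DRA (0.97) and ZCCHC8 (0.97). The TGFB1 neighbours include 2 swine class II antigen presentation genes, and their differences between the groups were 0.04 and 0.04. The SMAD7 probe was well above background on 0 of 3 ischemia and 2 of 3 control arrays, so its correlations rest mostly on undetected signal. For SMAD7 the correlation was highest with BMP4 (0.98), PTBP3, CREB1, KISS1R and RNF41 (0.97 each). Their brightest probes were lower in ischemia kidneys by amounts on the log2 scale from -0.14 to -0.82. The 2 tested probes of BMP4 lay at -0.21 and 0.33, so they differed in direction. Each correlation rests on 6 points that share an array and its scaling, and for TGFB2 and SMAD7 also the difference between the groups.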

How the data were processed

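Cortex RNA from 3 ischemia and 3 control kidneys was labelled with Cy3 and hybridised to 1 array each, per the labels. The deposited scanner files hold spot intensity that, per the file headers, Agilent Feature Extraction 10.10.1.1 subtracted for background and detrended within each array. The submitters' processing notes name version 11.5.1.1, R 2.15.2 and limma. The authors' deposited table is on the log2 scale, with 36796 rows, 1 for each accession on the array. Where an accession had several probes, its value followed their mean (mean Spearman correlation 0.99) more than the named probe alone (0.91). How it was normalized between arrays is not known here.

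Control and outlier spots were left out, replicate spots averaged, and log2 signals set against the 75th percentile of the array. Probes had to be well above background on at least 3 of 6 arrays and have a value on 5. Groups were compared in limma 3.58.1 (R 4.3.3; functions lmFit and eBayes; a two-sided test), adjusting over all 25013 probes. The procedure was tested on 10 simulated data sets, each with 200 of 24993 probes raised 1.5-fold to 8-fold and independent noise per probe. At an adjusted p under 0.05 in limma the procedure recovered 4.8% of 2-fold and 54% of 4-fold changes, rates that depend on these settings. A probe that did not pass may therefore still differ by such amounts. P-values measure the spread between these kidneys. Of 43603 probes 11995 received a symbol, from gene names, RefSeq synonyms and accessions. Sequences are those of the scanner files.

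The members and lists were chosen with earlier results of these data known. Named from each list were the 3 genes of smallest p and the 2 brightest. The 5 closest patterns were named for TGFB2, TGFB1 and SMAD7. Kidneys were not paired by sample number in the main fit. Deviations of equal numbers had correlations of -0.35 to -0.05. No such pair shared a slide, so these values cannot exclude a pairing by number. Deviations of arrays sharing a slide had correlations of 0.10 to 0.34, so within-slide values are given. Alternatives changed the scaling, background correction, filter, blocks and weights, or left out 1 kidney. A gene of the target list is not reported here.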

Additional observations from a re-analysis of the deposited data

How the results depend on the processing

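The number of probes past the threshold over the whole array was 1, and it was 11 with each array centred on its median, 0 with quantile normalization, 3 with normexp correction, 3 in the authors' deposited values, 3 with only probes above background on all 6 arrays, 0 with no filter, 0 with slide as a block, 3 with a variance trend and 21 with array weights. With the sample number as a replicate block it was 0, and leaving out 1 kidney gave 0 to 1, with 0 without ischemia kidney 2, control kidney 1 or control kidney 2. No member probe and no gene of the lists passed in any of these settings. The TGFB2 difference of 1.11 was 1.26 with median centring, 1.28 with quantile normalization, 0.25 with normexp correction and 0.62 in the deposited values, and 1.02 to 1.16 with 1 kidney left out. It stayed positive in all settings that gave a value. The filter for all 6 arrays removed the probe. The offset of 50 in normexp exceeds the TGFB2 signal of most arrays and compresses it by construction. The cause of the smaller value in the deposited table was not tested. The median of the member probes, 0.11, was 0.04 with normexp correction, 0.05 with the filter for all 6 arrays, 0.26 with median centring, 0.30 over the 9 in the deposited values and 0.08 to 0.20 with 1 kidney left out. Of 263 values of the other member probes under alternatives, 8 moved by more than the spread between kidneys, and 0 of them did so when 1 kidney was left out. Faint signal limits TGFB2, TGFBR1, SMAD7 and the dimmer TGFBR3 and SMAD3 probes, and 3 kidneys per group limit every value.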

Other observations

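Several genes of the pathway were named only by probe descriptions and stand outside the lists, and they were picked after the descriptions were read. The latent TGF-beta binding proteins anchor the latent ligand in the matrix. LTBP4 had a bright probe, A_72_P120071, that read 3.78, 4.05 and 4.77 in ischemia kidneys and 4.49, 4.43 and 4.18 in control kidneys, a difference of -0.17 ± 0.29 (SE). Its other probe, A_72_P381613, differed by 0.07 ± 0.40. LTBP1 differed by 0.24 ± 0.21, and the 2 tested probes of LTBP2 by -0.02 ± 0.21 and -0.27 ± 0.22. SMAD5, a SMAD of the BMP branch, differed by -0.04 ± 0.58, with values between -5.71 and -3.39 in control kidneys alone. The groups of all these probes overlapped, and limma called 0 of them at an adjusted p under 0.05.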
